A study of Mus musculus with 18 samples.

Results

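The genes of the cholesterol synthesis and SREBP pathway were followed across all 18 RNA-seq samples of an experiment on lipolysis in cultured brown adipocytes. They were taken from the deposited count table by their symbols, from a list of the mevalonate pathway, sterol synthesis, the control of the sterol regulatory element-binding proteins (SREBPs) and sterol transport. Of 30 symbols listed, 28 had a row among the 20295 genes of the table, and all 28 passed the filter on low counts that left 12156 genes for testing. Hmgcs1 is not analysed here, and Sc4mol is an older symbol of Msmo1, under which it was found. By role, 7 genes belong to the mevalonate pathway, 12 to sterol synthesis, 7 to SREBP control and 2 to sterol transport and other SREBP targets.

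The cells were BAT-LgT, a line made from wild-type mouse brown preadipocytes by means of the SV40 large T antigen, used at day 7 of differentiation into brown adipocytes. Cells of the Vehicle, ISO and SR-3420 groups were treated for 3 h with DMSO, with 100 nM of the β-adrenergic agonist isoproterenol (ISO) or with SR-3420, a ligand of the lipase co-activator ABHD5 that activates the triglyceride lipase ATGL. Another 3 groups, whose names begin with Lipase Inh. +, had the same treatments after 1 h with inhibitors of ATGL and of the hormone-sensitive lipase HSL. Each group held 3 samples. The study asked which effects of ISO on gene expression depend on lipolysis. The dose of SR-3420 was 10 µM by the labels, while the text of the study gives another dose, and which was used was not settled here. All groups come from a single immortalised line, and p-values measure the spread between its 3 cultures per group.

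Cholesterol is built from acetyl-CoA in a chain of enzymes that first makes mevalonate and isoprenoids, then squalene, and then closes and trims the sterol rings. SREBP-2 and SREBP-1 are membrane-bound transcription factors that the escort protein SCAP carries from the endoplasmic reticulum to the Golgi, where the site-1 and site-2 proteases release them. When sterols are plentiful, Insig-1 and Insig-2 hold SCAP in the endoplasmic reticulum, and Insig1 is itself a target of SREBPs, so that the pathway limits itself. SREBP-1 was described in adipocytes as a factor of their differentiation and drives fatty acid synthesis, and unsaturated fatty acids are known to restrain it.

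Total counts ranged from 10310447 to 21205032 in 17 libraries. Lipase Inh. + SR-3420 replicate 2 stood apart, with 4263755 counts, of which Lars2 took 18.3%, against 0.0397% to 0.121% in the others. Calls of pathway genes that rest on this library were also tested without it. Results for markers and for further gene lists are given with it only. Per the labels these were brown adipocytes. Defining adipocyte markers were high in every library, with at least 11810 counts of Adipoq and 9023 of Fabp4, and 11 of 12 brown adipocyte markers passed the filter on low counts. Among those of brown fat itself, Cidea had 229 to 1086 counts, Prdm16 125 to 888, Cox8b 117 to 834 and Ppargc1a 535 to 15312 over the 18 libraries. Ucp1, the uncoupling protein of thermogenesis, had 13 to 10912 counts and was highest in the groups with ISO, whereas Dio2 and Cox7a1 reached at most 6 and 36. Ptprc, the defining leukocyte marker, was at 0 in all 18 libraries, Emr1 and Myog reached at most 1 count, and Pecam1 of endothelial cells at most 9. Of 6 listed symbols of macrophages and leukocytes, 1 passed the filter and rose with ISO (0.74 on the log2 scale), as did 26.8% of all genes. Of skeletal muscle markers 2 passed the filter, and DESeq2 called 1 of them higher with ISO, against 26.6% of all genes. With libraries scaled by total counts alone in place of TMM factors, the median of all genes shifted by -0.31 (log2) in the comparison of ISO with Vehicle, by -0.16 in that of SR-3420 with Vehicle and by -0.23 in that of Lipase Inh. + ISO with Lipase Inh. + Vehicle. Directions and calls below are therefore relative to the bulk of genes. Those of pathway genes that change under that scaling are named, while for markers and further gene lists such changes are not given.

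In unstimulated cells the levels of these genes spanned a wide range. Per kilobase of counted length, Insig1 and Srebf1 led with 325 ± 19.7 and 270.1 ± 21.0 CPM (counts per 1000000 counts of the TMM-scaled library) per kb in Vehicle (mean ± SD, n = 3). Acat2, the cytosolic thiolase that opens the pathway, followed at 85.7 ± 2.66 CPM per kb. At the other end stood the decarboxylase Mvd at 9.96 ± 1.65 and the sterol reductase Tm7sf2 at 5.48 ± 1.00 CPM per kb. Mvd, Mvk at 10.5 ± 2.68 and the site-2 protease gene Mbtps2 at 10.6 ± 1.46 could not be ordered beyond their spread.

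The lipase inhibitors alone raised 10 of the 28 genes and lowered 0. A gene is said to have risen or fallen where edgeR's quasi-likelihood test gave an adjusted p (Benjamini-Hochberg over all 12156 genes) of at most 0.05. Of all genes tested, 0.485% rose and 0.428% fell in this comparison, 59 and 52 genes, so that these 10 made up 16.9% of all genes that rose and 35.7% of the genes of the pathway. Fewer cells of a type and less RNA per cell cannot be told apart in such bulk samples. At an unadjusted p under 0.05 edgeR placed 15 genes higher and 0 lower. The share of all genes past an unadjusted p of 0.05 was not computed, here or below. DESeq2 called 12 higher and 0 lower, against 0.814% and 0.675% of all genes. The median log2 fold change was 0.20 over the 28 genes and near 0 over all genes. None of 11 brown adipocyte markers and none of 5 preadipocyte and fibroblast markers passed in this comparison by edgeR or DESeq2, with 1 of the former higher, 1 lower and 0 of the latter in either direction at an unadjusted p under 0.05.

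Sterol synthesis held 7 of the 10. Cyp51, the demethylase of lanosterol, had 141, 145 and 154 CPM in the 3 Vehicle samples and 250.5, 274 and 232 in Lipase Inh. + Vehicle. Every sample with inhibitors lay above every Vehicle sample, with a log2 fold change of 0.78 ± 0.06 (SE; edgeR adjusted p = 1.4e-07), a 1.72-fold rise. Sqle, the squalene epoxidase, rose by 0.65 ± 0.08 on the log2 scale, and Lss, which closes the rings to lanosterol, by 0.63 ± 0.08. Among the genes of the later trimming steps, Sc5d rose by 0.64 ± 0.08, the methylsterol oxidase gene Msmo1 by 0.58 ± 0.06, the ketosterol reductase gene Hsd17b7 by 0.56 ± 0.07 and the dehydrogenase gene Nsdhl by 0.51 ± 0.10. By p-value, Cyp51, Msmo1, Insig1, Sc5d, Hsd17b7, Sqle and Lss held the ranks 4, 6, 9, 10, 11, 13 and 15 among the 12156 genes.

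The other 3 genes that rose were Idi1, the isomerase of the isoprenoid unit (0.64 ± 0.10), the sterol transfer protein gene Stard4 (0.48 ± 0.07) and Insig1 (0.59 ± 0.07). Mvd and the farnesyl diphosphate synthase gene Fdps had values as large, 0.66 ± 0.17 and 0.61 ± 0.15, but did not pass (edgeR adjusted p = 0.078 and 0.061); both passed with DESeq2. Among the regulators, Srebf1 (-0.05 ± 0.08), Srebf2 (0.17 ± 0.07), Scap (-0.14 ± 0.09) and Insig2 (0.15 ± 0.11) did not pass. In 14 of the 28 genes every Lipase Inh. + Vehicle sample lay above every Vehicle sample, which was so for 8.03% of all genes. When libraries were left out in turn, the 9 calls other than Nsdhl held in all 18 fits; Nsdhl had an edgeR adjusted p of 0.063 without Lipase Inh. + Vehicle replicate 1.

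**Figure D1:**
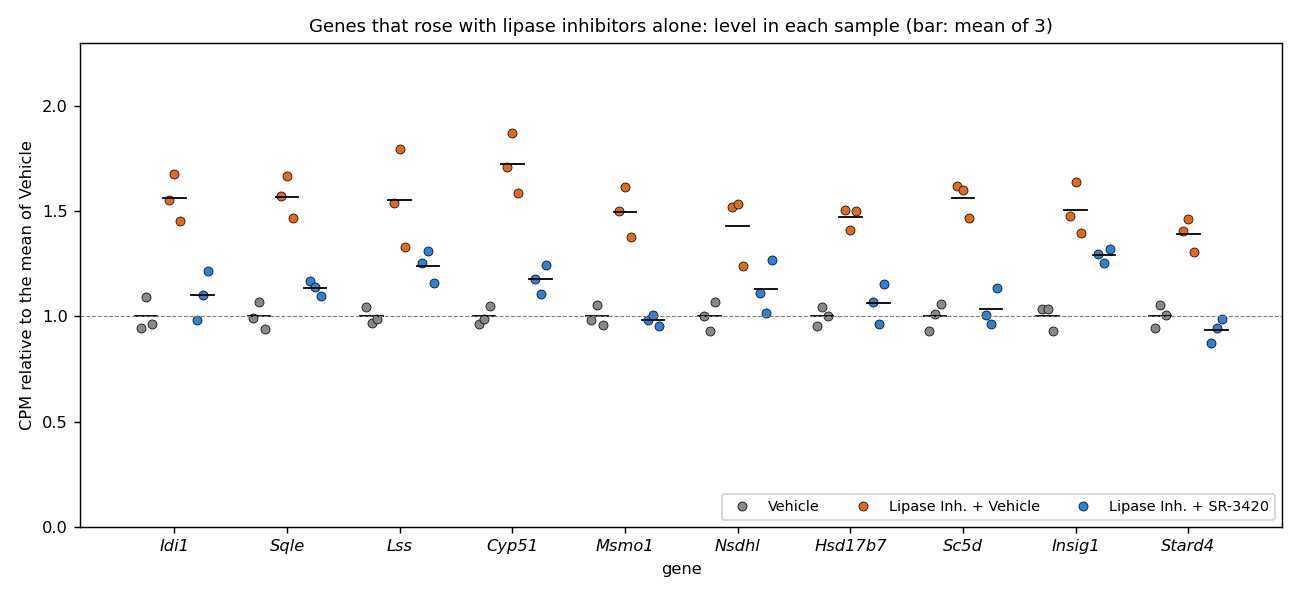
Level of the 10 genes that rose with lipase inhibitors alone (x axis), as CPM relative to the mean of Vehicle (y axis, linear), with a point per sample and a bar at the mean of 3. The Lipase Inh. + Vehicle points lie above all Vehicle points in each gene, and most Lipase Inh. + SR-3420 points lie between the other groups or among Vehicle.

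In the presence of inhibitors, SR-3420 lowered 15 of the 28 genes and raised 0. Over all genes, 1.36% fell and 2.99% rose, and the 15 made up 9.09% of the 165 genes that fell. At an unadjusted p under 0.05 edgeR placed 18 lower and 0 higher. DESeq2 called 16 lower and 0 higher, against 1.56% and 3.74% of all genes. Of 11 brown adipocyte markers Ppargc1a alone passed, at 0.67 ± 0.08. This comparison shares the Lipase Inh. + Vehicle samples with the previous one, so that a value of that group that happened to be high enters both with opposite sign, and the number of genes found in both is not given as a result. Msmo1 had 117, 126 and 114 CPM in Vehicle, 178, 192 and 164 in Lipase Inh. + Vehicle and 117, 119.7 and 113 in Lipase Inh. + SR-3420. The last group overlapped Vehicle and lay below every sample with inhibitors alone, with a log2 fold change of -0.61 ± 0.07 (edgeR adjusted p = 5.5e-06).

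Of the mevalonate pathway 5 genes fell, namely Mvd (-0.92 ± 0.18), the phosphomevalonate kinase gene Pmvk (-0.69 ± 0.17), Fdps (-0.65 ± 0.16), the mevalonate kinase gene Mvk (-0.65 ± 0.18) and Idi1 (-0.50 ± 0.10). Of sterol synthesis 8 genes fell. Beside Msmo1 these were Sc5d (-0.58 ± 0.08), Cyp51 (-0.54 ± 0.06), the squalene synthase gene Fdft1 (-0.49 ± 0.07), Sqle (-0.47 ± 0.08), Hsd17b7 (-0.46 ± 0.07), Dhcr7 of the last reduction (-0.42 ± 0.10) and Lss (-0.33 ± 0.09). Srebf2 (-0.37 ± 0.07) and Stard4 (-0.57 ± 0.07) fell as well, whereas Insig1 at -0.22 ± 0.07 (edgeR adjusted p = 0.088) and Srebf1 at -0.13 ± 0.08 did not pass. At 2-fold 0 of the 28 genes fell or rose, against 0.0823% and 0.214% of all genes.

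Without the library that stood apart, Lipase Inh. + SR-3420 replicate 2, 12 genes fell. The calls of Mvk, Pmvk, Mvd, Fdps, Lss and Dhcr7 were each lost when a library of either group was left out, and the lowest count, 10 genes, was reached without Lipase Inh. + Vehicle replicate 2. The edgeR adjusted p of Mvk was then 0.22, that of Lss 0.21, that of Dhcr7 0.17, that of Pmvk 0.16 and that of Fdps 0.086, while Mvd had 0.051 without Lipase Inh. + SR-3420 replicate 3. The other 9 genes kept their call in all 18 fits.

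Set directly against Vehicle, a comparison added after the data were seen, Lipase Inh. + SR-3420 gave few calls. Values that did not pass reached -0.55 on the log2 scale. Insig1 (0.37 ± 0.07), Lss (0.30 ± 0.09) and Cyp51 (0.24 ± 0.07) were higher and Fdft1 (-0.33 ± 0.07) was lower, 3 and 1 of 28 genes against 5.96% and 2.62% of all genes. The calls of Lss and Cyp51 were lost when single libraries were left out, with edgeR adjusted p up to 0.10 for Lss without Lipase Inh. + SR-3420 replicate 2 and up to 0.14 for Cyp51 without replicate 3 of that group. With total counts alone Insig1, Lss and Cyp51 did not pass, and Mvk, Srebf1 and Srebf2 passed as lower.

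**Figure D2:**
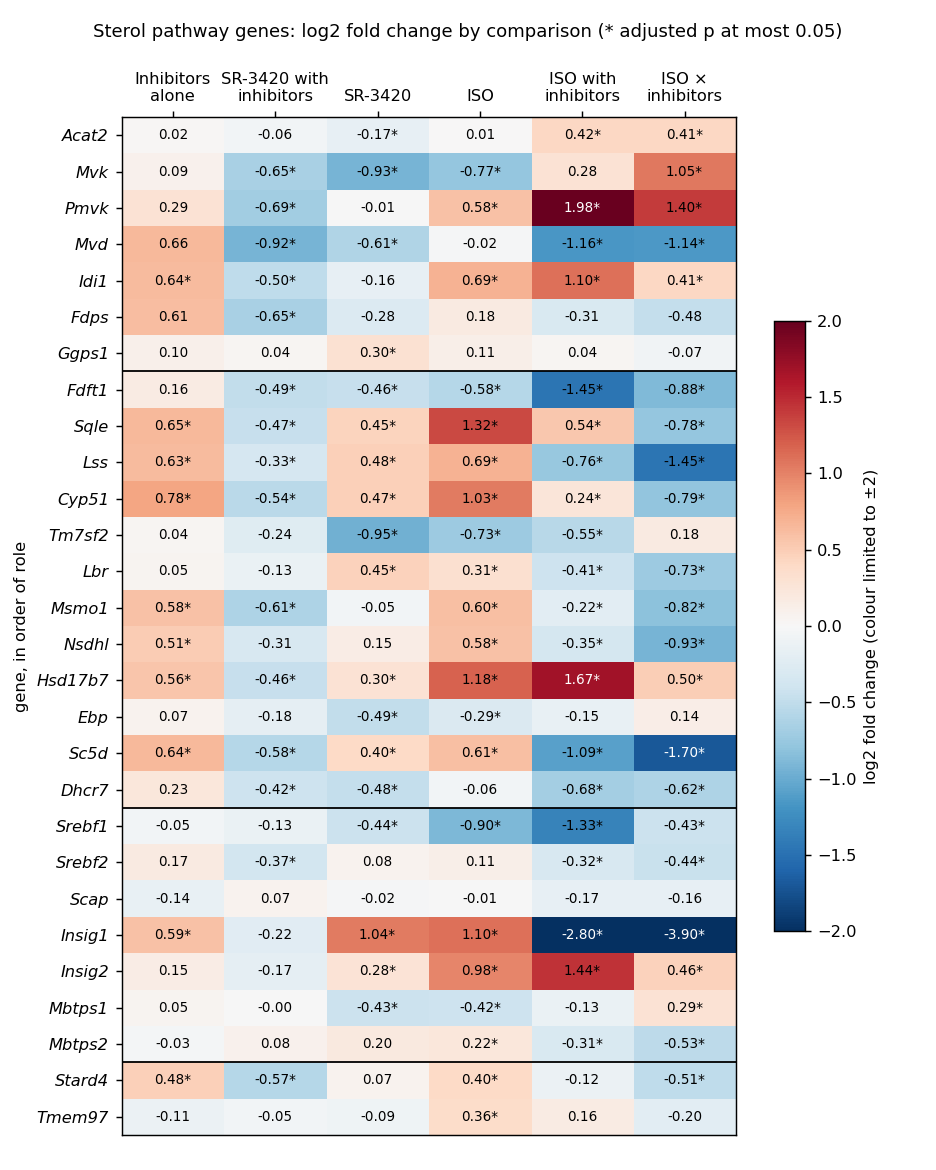
Log2 fold changes of the 28 genes (rows, ordered by role and divided by lines) in 6 comparisons (columns), as numbers and as colour limited to 2 in either direction, with an asterisk at an adjusted p of at most 0.05. The column of inhibitors alone holds 10 marked rises and no marked fall, and that of SR-3420 with inhibitors holds 15 marked falls and no marked rise.

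ISO raised 15 of the 28 genes and lowered 6. Of all genes, 26.8% rose and 25% fell, so that the share of 21.4% of the pathway that fell was near the background and the share of 53.6% that rose was above it. With total counts alone 10 genes rose and 9 fell, against 12.3% and 49.4% of all genes under that scaling. Of 11 brown adipocyte markers 4 rose and 1 fell in this comparison, with Ucp1 at 7.08 ± 0.28, and of 5 preadipocyte and fibroblast markers 2 rose; their part in the result was not tested. Sqle had the largest rise, from 94.3, 101 and 89.0 CPM in Vehicle to 242, 229 and 241 with ISO. The groups did not overlap and the rise was 2.50-fold (1.32 ± 0.08 on the log2 scale, edgeR adjusted p = 1.8e-11). At 2-fold 4 genes rose and 0 fell, against 5.03% and 4.07% of all genes. Hsd17b7 rose 2.26-fold, Insig1 2.15-fold and Cyp51 2.05-fold.

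Of sterol synthesis 8 of 12 genes rose and 3 fell. Besides Sqle, Hsd17b7 and Cyp51, smaller rises were found for Lss (0.69 ± 0.09), Sc5d (0.61 ± 0.08), Msmo1 (0.60 ± 0.06), Nsdhl (0.58 ± 0.10) and Lbr, the lamin B receptor that is also a sterol reductase (0.31 ± 0.07, not past the test with total counts alone). The genes that fell were Tm7sf2 (-0.73 ± 0.20), Fdft1 (-0.58 ± 0.07) and the sterol isomerase gene Ebp (-0.29 ± 0.08). Dhcr7 stood at -0.06 ± 0.10 and did not pass.

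In the mevalonate pathway ISO raised Idi1 (0.69 ± 0.10) and Pmvk (0.58 ± 0.16, not past the test with total counts alone) and lowered Mvk (-0.77 ± 0.17). Acat2 (0.01 ± 0.06, or -0.29 with total counts alone), Mvd (-0.02 ± 0.18), Fdps (0.18 ± 0.16) and the geranylgeranyl diphosphate synthase gene Ggps1 (0.11 ± 0.10) did not pass. Stard4 (0.40 ± 0.07) and the sterol-regulated membrane protein gene Tmem97 (0.36 ± 0.07) rose, and neither passed with total counts alone. Under that scaling Acat2, Dhcr7 and Scap passed as lower.

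The regulators moved apart with ISO. Srebf1 had 1210.3, 1150.2 and 1037 CPM in Vehicle and 617, 557 and 648 with ISO. Every ISO sample was lower than every Vehicle sample, by 1.86-fold (-0.90 ± 0.08, edgeR adjusted p = 4.0e-09). Insig2 had 102, 86.4 and 117 CPM in Vehicle and 198, 191 and 214 with ISO, a 1.98-fold rise without overlap (0.98 ± 0.11). Insig1 had 889, 891 and 799 and 1931, 1751 and 1862 CPM, also without overlap (1.10 ± 0.07). The site-1 protease gene Mbtps1 fell (-0.42 ± 0.07), and the site-2 protease gene Mbtps2 rose slightly (0.22 ± 0.09), a value of -0.08 with total counts alone and a call lost without each of 4 libraries (Vehicle replicates 1 and 2, ISO replicates 1 and 3), with an edgeR adjusted p up to 0.23. Mbtps2 shares 2867 bp of its span with Yy2 on the same strand, so that reads could be assigned to either. Srebf2 and Scap did not pass, with 95% intervals of -0.03 to 0.26 and -0.19 to 0.17 on the log2 scale.

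SR-3420 without inhibitors raised 9 genes and lowered 9, against 26% and 25.4% of all genes. With total counts alone it raised 6 and lowered 13, against 16% and 35.9% of all genes under that scaling. These effects and those of ISO share the Vehicle samples and are given side by side. Insig1 rose to 1775, 1716 and 1819 CPM, 2.06-fold over Vehicle (1.04 ± 0.07, edgeR adjusted p = 1.5e-10), the only rise of at least 2-fold (3.97% of all genes), while 0 falls reached that size (2.37%). Lss (0.48 ± 0.08), Cyp51 (0.47 ± 0.06), Sqle (0.45 ± 0.08), Lbr (0.45 ± 0.07), Sc5d (0.40 ± 0.08), Ggps1 (0.30 ± 0.09), Hsd17b7 (0.30 ± 0.07) and Insig2 (0.28 ± 0.11) rose, the last 3 not with total counts alone. Under that scaling Idi1, Fdps, Msmo1 and Tmem97 passed as lower. Of 11 brown adipocyte markers 5 rose and 3 fell, and of 5 preadipocyte and fibroblast markers 1 rose; their part in the result was not tested. Tm7sf2 (-0.95 ± 0.20), Mvk (-0.93 ± 0.17), Mvd (-0.61 ± 0.18), Ebp (-0.49 ± 0.07), Dhcr7 (-0.48 ± 0.10), Fdft1 (-0.46 ± 0.07), Srebf1 (-0.44 ± 0.08), Mbtps1 (-0.43 ± 0.07) and Acat2 (-0.17 ± 0.06) fell. Srebf1 had 803, 838 and 872 CPM and Insig2 123, 120.3 and 126 with SR-3420, in both genes without overlap with Vehicle. The calls of Acat2, Ggps1, Insig2 and Mvd were lost in some of the 18 fits that left out a library, with edgeR adjusted p up to 0.18 for Insig2 without Vehicle replicate 2.

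ISO and SR-3420 were also set against each other. Without inhibitors 15 genes were higher with ISO and 1 was lower, against 15.8% and 13.9% of all genes. With total counts alone these were 8 and 4, against 6.38% and 25% under that scaling. The largest differences were in Hsd17b7 (0.88 ± 0.07), Sqle (0.88 ± 0.08), Idi1 (0.85 ± 0.10) and Insig2 (0.70 ± 0.10), all higher with ISO. Msmo1 (0.65 ± 0.06), Cyp51 (0.56 ± 0.06), Tmem97 (0.45 ± 0.07), Nsdhl (0.43 ± 0.09), Dhcr7 (0.42 ± 0.10) and Stard4 (0.32 ± 0.07) were also higher. Pmvk (0.59 ± 0.16), Mvd (0.59 ± 0.18), Fdps (0.45 ± 0.16), Sc5d (0.21 ± 0.08) and Acat2 (0.18 ± 0.06) were higher by values whose calls were lost without some libraries, with edgeR adjusted p up to 0.20 for Sc5d without ISO replicate 3 and 0.17 for Fdps without SR-3420 replicate 3. Srebf1 was lower with ISO (-0.46 ± 0.08). With total counts alone Acat2, Mvd, Fdps, Nsdhl, Sc5d, Dhcr7 and Stard4 did not pass, and Ggps1, Fdft1 and Lbr passed as lower. For Insig1 the difference was 0.06 ± 0.07, with a 95% interval of -0.08 to 0.21.

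With inhibitors the effect of ISO took another form, with 7 genes raised and 13 lowered relative to Lipase Inh. + Vehicle, against 29.4% and 28.3% of all genes. With total counts alone 5 rose and 18 fell, against 16.2% and 42.1% of all genes under that scaling. At 2-fold 4 rose and 5 fell, against 5.43% and 7.63%. The further falls with total counts alone were those of Fdps, Ebp, Scap, Mbtps1 and Stard4. Of 11 brown adipocyte markers 5 rose and 1 fell, with Ucp1 at 8.20 ± 0.29, and of 5 preadipocyte and fibroblast markers 2 rose; their part in the result was not tested.

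Insig1, at chr5:28397952-28405202 on the plus strand of mm9, changed most of the 28. It had 1269, 1408 and 1201 CPM in Lipase Inh. + Vehicle and 184, 200.1 and 175 in Lipase Inh. + ISO. All 3 samples with ISO and inhibitors lay below every other sample of the experiment, 6.95-fold under the inhibitors alone (-2.80 ± 0.08, edgeR adjusted p = 1.9e-17). Lipase Inh. + SR-3420 had 1114, 1076 and 1133 CPM. Insig2, at chr1:123200930-123229166 on the minus strand, went the other way, with 107, 107 and 123 CPM in Lipase Inh. + Vehicle, 301, 261 and 356 in Lipase Inh. + ISO and 98.4, 90.6 and 108 in Lipase Inh. + SR-3420. Its Lipase Inh. + ISO samples were above all others, 2.72-fold over inhibitors alone (1.44 ± 0.10). Per kilobase, the mean level of Insig1 was 325 CPM per kb against 41.3 for Insig2 in Vehicle, and 70.3 against 124 in Lipase Inh. + ISO, so that Insig2 was then the more abundant.

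Srebf1, at chr11:60012591-60034106 on the minus strand, where its span overlaps Rai1 on the opposite strand by 107 bp, had 1068, 1191 and 1013 CPM in Lipase Inh. + Vehicle and 429.6, 466 and 406 in Lipase Inh. + ISO. It fell 2.51-fold (-1.33 ± 0.08). Its groups did not overlap, and Lipase Inh. + SR-3420 had 1060.0, 967 and 959.8 CPM. Srebf2, with 178, 200.1 and 169.9 and 150.3, 153 and 134 CPM, fell less (-0.32 ± 0.07). Its other groups had 159, 171 and 155 CPM in Vehicle, 180.1, 180.0 and 164 with ISO, 167, 178 and 167 with SR-3420 and 145, 142 and 136 in Lipase Inh. + SR-3420. All 18 values lay between 134 and 200.1 CPM.

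Scap was the steadiest regulator, between 55.9 and 82.2 CPM over all 18 samples, and did not pass (-0.17 ± 0.09; with total counts alone it passed as lower). Scap had 82.2, 74.4 and 66.7 CPM in Vehicle, 75.6, 79.1 and 67.4 with ISO and 74.7, 76.1 and 70.7 with SR-3420. With inhibitors it had 66.3, 68.5 and 67.8 CPM with Vehicle, 66.6, 58.5 and 55.9 with ISO and 73.9, 76.2 and 63.7 with SR-3420, and every group overlapped at least 1 other. Mbtps2 fell (-0.31 ± 0.09) and Mbtps1 stood at -0.13 ± 0.07, which did not pass.

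Of the mevalonate pathway Pmvk, Idi1 and Acat2 rose. Pmvk, at chr3:89263040-89272931 on the plus strand of mm9, had 67.6, 52.3 and 45.1 CPM in Vehicle, 77.5, 92.9 and 77.4 with ISO and 48.6, 65.1 and 51.5 with SR-3420. With inhibitors it had 64.1, 84.9 and 54.4 CPM with Vehicle, 240.2, 289 and 268 with ISO and 52.2, 38.4 and 34.5 with SR-3420. The samples with ISO and inhibitors lay above all others, 3.94-fold over inhibitors alone (1.98 ± 0.16, edgeR adjusted p = 7.9e-10). Idi1 had 50.6, 58.4 and 51.4 CPM in Vehicle, 78.1, 88.0 and 92.7 with ISO and 50.1, 50.3 and 43.1 with SR-3420. With inhibitors it had 83.0, 89.6 and 77.7 CPM with Vehicle, 183, 194 and 161 with ISO and 52.5, 58.9 and 64.9 with SR-3420. Again the samples with ISO and inhibitors were the highest, with a rise of 2.15-fold (1.10 ± 0.09). Acat2 rose (0.42 ± 0.06, not past the test with total counts alone), and Mvd fell 2.24-fold (-1.16 ± 0.18). Mvk (0.28 ± 0.16), Fdps (-0.31 ± 0.15) and Ggps1 (0.04 ± 0.09) did not pass.

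In sterol synthesis 3 genes rose and 8 fell with ISO in the presence of inhibitors. Hsd17b7, at chr1:171879668-171899336 on the minus strand of mm9, had 96.1, 105 and 101 CPM in Vehicle, 223, 246 and 213 with ISO and 127, 121 and 122 with SR-3420. With inhibitors it had 151, 142 and 151 CPM with Vehicle, 474, 489 and 455 with ISO and 107, 97.0 and 116 with SR-3420. It rose 3.19-fold over inhibitors alone (1.67 ± 0.07), without overlap with any other group. Sqle had 135, 131 and 123 CPM with SR-3420, 149, 158 and 139 in Lipase Inh. + Vehicle, 227, 240.2 and 185 in Lipase Inh. + ISO and 111, 108 and 104 in Lipase Inh. + SR-3420. It rose with ISO in the presence of inhibitors (0.54 ± 0.08), to samples that overlapped those with ISO alone. Cyp51 rose slightly (0.24 ± 0.06, not past the test with total counts alone).

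Fdft1, the first enzyme committed to sterols, fell most in this group. It had 108, 108 and 101 CPM in Vehicle, 70.8, 74.2 and 67.6 with ISO and 78.5, 82.3 and 71.0 with SR-3420. With inhibitors it had 119.6, 120.4 and 114 CPM with Vehicle, 44.1, 41.4 and 43.6 with ISO and 84.8, 88.5 and 80.4 with SR-3420. The samples with ISO and inhibitors were the lowest of all, 2.74-fold under inhibitors alone (-1.45 ± 0.07). Its span overlaps Ctsb on the opposite strand by 773 bp, and whether the counting used strand is not given in the sources used here. Sc5d fell 2.12-fold (-1.09 ± 0.08), and Lss (-0.76 ± 0.09), Dhcr7 (-0.68 ± 0.10), Tm7sf2 (-0.55 ± 0.19), Lbr (-0.41 ± 0.07), Nsdhl (-0.35 ± 0.09) and Msmo1 (-0.22 ± 0.06) fell less. Without Lipase Inh. + Vehicle replicate 2 the edgeR adjusted p was 0.056 for Msmo1 and 0.11 for Tm7sf2, and without Lipase Inh. + ISO replicate 3 it was 0.084 for Tm7sf2, whose level was also the lowest of the pathway and whose span overlaps Vps51 by 9 bp. Ebp (-0.15 ± 0.07), Stard4 (-0.12 ± 0.07) and Tmem97 (0.16 ± 0.07) did not pass.

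**Figure D3:**
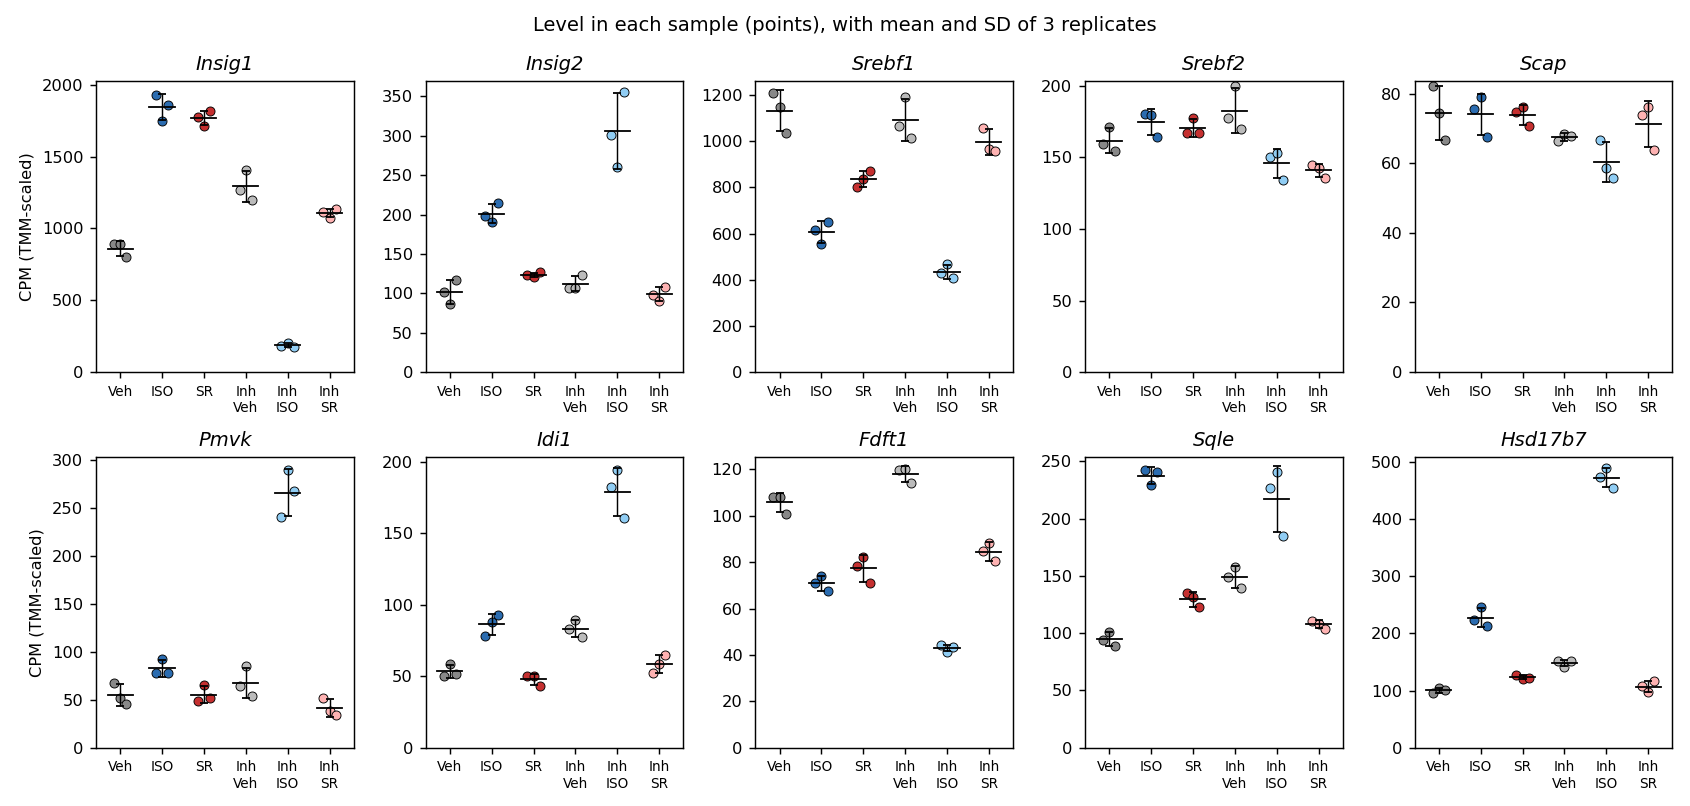
CPM (y axes, linear from 0) of 10 genes in each of the 6 groups, with a point per sample and the mean and SD of 3 replicates (Veh, Vehicle; SR, SR-3420; Inh, with lipase inhibitors). With ISO and inhibitors, every sample of Insig1, Fdft1 and Srebf1 lies below all samples of the other groups. Those of Insig2, Pmvk, Idi1 and Hsd17b7 lie above all samples of the other groups.

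Whether the inhibitors changed the effect of ISO was tested as an interaction, the effect with inhibitors minus that without. It was positive in 7 and negative in 15 of the 28 genes, against 14.9% and 16.6% of all genes. At 2-fold it was positive in 2 and negative in 4, against 2.18% and 4.71%. The median interaction was -0.46 over the 28 genes and 0.01 over all genes. Insig1 had the largest value, -3.90 ± 0.10 on the log2 scale (edgeR adjusted p = 1.0e-16) or 14.9-fold between the responses. Of sterol synthesis 9 genes had a negative interaction, namely Sc5d (-1.70 ± 0.11), Lss (-1.45 ± 0.12), Nsdhl (-0.93 ± 0.13), Fdft1 (-0.88 ± 0.10), Msmo1 (-0.82 ± 0.09), Cyp51 (-0.79 ± 0.09), Sqle (-0.78 ± 0.11), Lbr (-0.73 ± 0.10) and Dhcr7 (-0.62 ± 0.14). Hsd17b7 was the only gene of that role with a positive one (0.50 ± 0.10). Lipase Inh. + Vehicle, which was raised in some of these genes, enters the interaction with a negative sign. Relative to the mean of Vehicle, ISO and Lipase Inh. + ISO were at 2.05 and 2.03 for Cyp51 and at 2.50 and 2.29 for Sqle. They were at 1.52 and 0.735 for Sc5d and at 2.15 and 0.217 for Insig1.

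Of the mevalonate pathway, Pmvk (1.40 ± 0.23), Mvk (1.05 ± 0.23), Idi1 (0.41 ± 0.13) and Acat2 (0.41 ± 0.09) had a positive interaction and Mvd a negative one (-1.14 ± 0.25). Insig2 (0.46 ± 0.15) and Mbtps1 (0.29 ± 0.10) were positive, while Mbtps2 (-0.53 ± 0.12), Srebf2 (-0.44 ± 0.10), Srebf1 (-0.43 ± 0.11) and Stard4 (-0.51 ± 0.10) were negative. Of these 22 calls, 19 held in all 18 fits that left out a library. Those of Idi1, Insig2 and Mbtps1 did not, with edgeR adjusted p up to 0.073 without ISO replicate 1, 0.068 without Lipase Inh. + ISO replicate 3 and 0.089 without ISO replicate 2. Srebf1 did not pass with total counts alone.

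The effects of ISO without and with inhibitors rest on different samples. There were 7 genes that rose without and fell with inhibitors, namely Insig1, Lss, Lbr, Msmo1, Nsdhl, Sc5d and Mbtps2. Another 6 rose in both, namely Pmvk, Idi1, Sqle, Cyp51, Hsd17b7 and Insig2, and 3 fell in both, namely Fdft1, Tm7sf2 and Srebf1. No gene fell without and rose with inhibitors. The genes with a call in each setting but opposite signs are those named here, with Mbtps2 resting on the small rise described above. The share of all genes with each of these joint patterns was not computed, so that no pattern is read as particular to the pathway. Falls with inhibitors are relative to Lipase Inh. + Vehicle. Lipase Inh. + ISO was still at 1.29 of the Vehicle mean for Msmo1 and 1.12 for Nsdhl, and below it for Insig1, Lss, Lbr, Sc5d and Mbtps2.

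**Figure D4:**
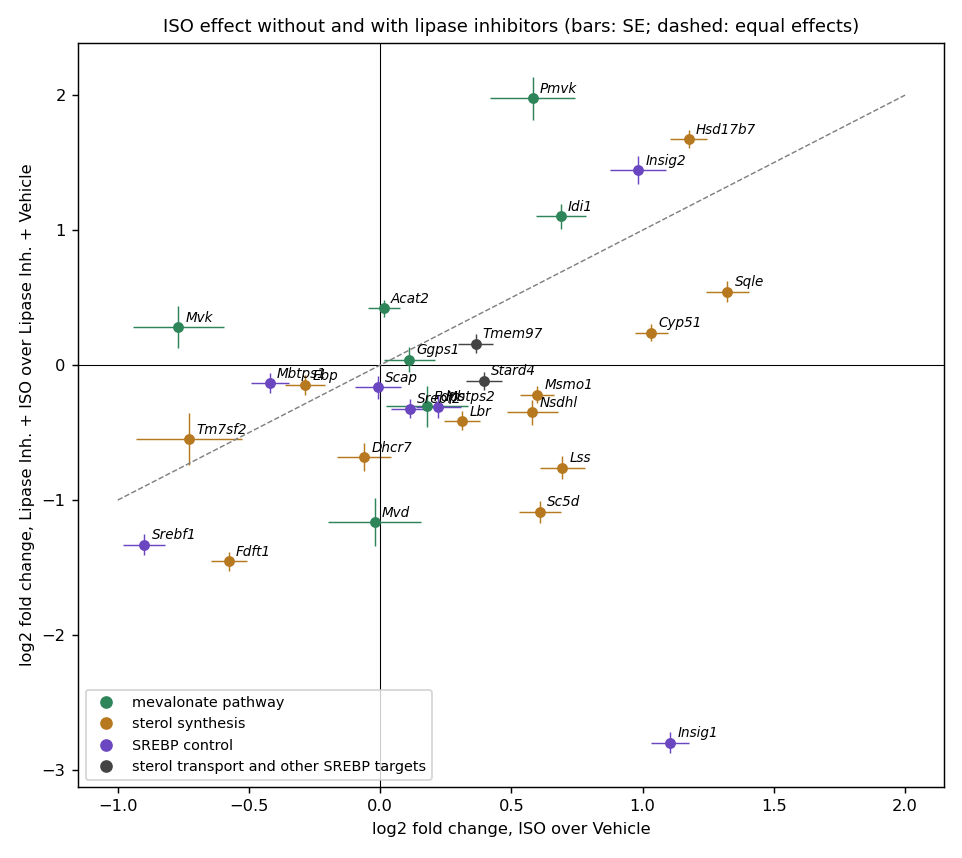
Log2 fold change of the 28 genes with ISO over Vehicle (x axis) and with Lipase Inh. + ISO over Lipase Inh. + Vehicle (y axis), coloured by role, with bars of 1 SE and a dashed line of equal effects. Insig1 stands alone at the lower right, and Pmvk, Hsd17b7, Insig2 and Idi1 lie above the line at the upper right.

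The interaction of SR-3420 with the inhibitors was negative in 13 genes and positive in 3, against 14.8% and 12.5% of all genes. At 2-fold it was negative in 2 and positive in 0, against 2.42% and 1.4%. Insig1 (-1.26 ± 0.10), Cyp51 (-1.02 ± 0.09), Sc5d (-0.98 ± 0.11) and Sqle (-0.92 ± 0.12) had the largest negative values. Lss (-0.81 ± 0.12), Hsd17b7 (-0.76 ± 0.10), Pmvk (-0.68 ± 0.24), Stard4 (-0.64 ± 0.10), Lbr (-0.58 ± 0.10), Msmo1 (-0.56 ± 0.09), Nsdhl (-0.46 ± 0.14), Insig2 (-0.45 ± 0.15) and Srebf2 (-0.45 ± 0.10) followed. Mbtps1 (0.43 ± 0.10), Ebp (0.31 ± 0.11) and Srebf1 (0.30 ± 0.11) were positive. Lipase Inh. + Vehicle enters this interaction with a negative sign as well. Relative to the mean of Vehicle, SR-3420 and Lipase Inh. + SR-3420 were at 0.967 and 0.981 for Msmo1 and at 2.06 and 1.29 for Insig1. With total counts alone Pmvk, Nsdhl, Insig2 and Srebf1 did not pass, and Tm7sf2 passed as positive. Without Lipase Inh. + SR-3420 replicate 2, 11 were negative and 1 positive. The calls of Pmvk, Insig2, Ebp and Srebf1 were lost without that library and without several others, with edgeR adjusted p up to 0.13 for Pmvk without Lipase Inh. + SR-3420 replicate 3 and up to 0.12 for Srebf1 without replicate 1 of that group.

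In the presence of inhibitors, 11 genes were higher with ISO than with SR-3420 and 9 were lower, against 28.6% and 28.3% of all genes. At 2-fold these were 5 and 2, against 5.34% and 7.85%. Pmvk (2.67 ± 0.17), Hsd17b7 (2.13 ± 0.07), Insig2 (1.62 ± 0.11) and Idi1 (1.60 ± 0.10) differed most upwards. Insig1 (-2.57 ± 0.08), Srebf1 (-1.20 ± 0.08) and Fdft1 (-0.97 ± 0.07) differed most downwards. Sqle (1.01 ± 0.08), Mvk (0.93 ± 0.17), Cyp51 (0.78 ± 0.06), Acat2 (0.48 ± 0.06), Stard4 (0.45 ± 0.07), Msmo1 (0.40 ± 0.07) and Tmem97 (0.21 ± 0.07) were also higher, and Sc5d (-0.51 ± 0.08), Lss (-0.43 ± 0.09), Mbtps2 (-0.39 ± 0.09), Lbr (-0.28 ± 0.07), Dhcr7 (-0.27 ± 0.11) and Scap (-0.23 ± 0.09) lower. Without Lipase Inh. + SR-3420 replicate 2 the counts were 10 and 7, with the calls of Tmem97, Dhcr7 and Scap lost; without Lipase Inh. + ISO replicate 3 the same 3 had edgeR adjusted p of 0.074, 0.20 and 0.16. With total counts alone Tmem97 did not pass and Mbtps1 passed as lower.

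Lipase Inh. + ISO was also set directly against ISO, again a comparison added after the data were seen. Relative to ISO alone 8 of the 28 genes were higher and 14 lower, against 21% and 21.6% of all genes. Insig1 was 9.94-fold lower (-3.31 ± 0.08, edgeR adjusted p = 7.0e-18), with 1931, 1751 and 1862 CPM against 184, 200.1 and 175. Pmvk (1.69 ± 0.16), Mvk (1.14 ± 0.17), Hsd17b7 (1.06 ± 0.07) and Idi1 (1.05 ± 0.09) were at least 2-fold higher, 4 genes against 2.44% of all genes. With Sc5d (-1.05 ± 0.08), 2 genes were at least 2-fold lower, against 4.29%. The calls of Mvd, Ebp and Scap were lost when single libraries were left out, with edgeR adjusted p up to 0.14, 0.15 and 0.061, and Mvd, Msmo1, Srebf2 and Scap did not pass with total counts alone.

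Promoter sequences of the genes of the pathway were also examined. The table used, of RefSeq promoters on GRCm38.p6, held 24 of the 28 genes, each with at least 1 window of 250 bases before to 50 bases after the start; Fdps, Fdft1, Sqle and Stard4 were not matched. Short strings were searched on both strands. The first was a sterol regulatory element core, TCACNCCA. The E-box was searched as CACGTG and the GC box as GGGCGG. A cyclic AMP response element was searched as TGACGTCA, and the CCAAT box by the letters of its name. None of these strings contains another. The box CCAAT stood in 20 of the 24 genes, 83.3%, against 43.5% of the 9206 tested genes with a window. The GC box stood in 21, 87.5% against 69.7%, and the E-box in 5, 20.8% against 11.8%. The sterol element core stood in Msmo1 and Srebf2 only, 8.33% of the genes against 4.45%, and the cyclic AMP element in 0 of 24 against 3.68%. These shares are descriptions of letters in short windows.

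The windows below are the 250 bases before the start of the 5 genes with an entry that had the largest interactions of ISO and inhibitors, negative in Insig1, Sc5d, Lss and Mvd and positive in Pmvk. They are shown so that the promoters of genes that fell and of a gene that rose can be read side by side. Capitals mark the E-box and CCAAT box on either strand.
Insig1, chr5:28071162-28071411, plus strand: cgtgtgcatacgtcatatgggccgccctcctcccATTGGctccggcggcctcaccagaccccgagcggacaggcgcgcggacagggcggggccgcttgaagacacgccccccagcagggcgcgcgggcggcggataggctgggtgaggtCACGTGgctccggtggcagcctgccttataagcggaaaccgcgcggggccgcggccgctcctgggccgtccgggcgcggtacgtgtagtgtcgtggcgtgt
Sc5d, chr9:42264301-42264550, minus strand: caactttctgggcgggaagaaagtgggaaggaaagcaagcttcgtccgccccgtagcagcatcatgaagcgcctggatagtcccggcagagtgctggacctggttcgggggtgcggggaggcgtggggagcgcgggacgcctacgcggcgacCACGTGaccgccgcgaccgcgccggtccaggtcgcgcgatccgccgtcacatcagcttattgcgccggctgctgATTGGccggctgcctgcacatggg
Lss, chr10:76531355-76531604, plus strand: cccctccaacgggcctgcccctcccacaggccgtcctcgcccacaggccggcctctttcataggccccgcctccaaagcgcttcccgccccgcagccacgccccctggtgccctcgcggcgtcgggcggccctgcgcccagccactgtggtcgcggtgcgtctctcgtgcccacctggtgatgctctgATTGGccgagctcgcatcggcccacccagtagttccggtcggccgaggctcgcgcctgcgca
Mvd, chr8:122443423-122443672, minus strand: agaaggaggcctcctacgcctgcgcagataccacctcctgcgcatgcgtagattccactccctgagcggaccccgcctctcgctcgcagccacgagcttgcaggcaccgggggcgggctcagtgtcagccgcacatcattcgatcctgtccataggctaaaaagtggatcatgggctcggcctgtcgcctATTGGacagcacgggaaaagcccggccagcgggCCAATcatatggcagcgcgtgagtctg
Pmvk, chr3:89454291-89454540, plus strand: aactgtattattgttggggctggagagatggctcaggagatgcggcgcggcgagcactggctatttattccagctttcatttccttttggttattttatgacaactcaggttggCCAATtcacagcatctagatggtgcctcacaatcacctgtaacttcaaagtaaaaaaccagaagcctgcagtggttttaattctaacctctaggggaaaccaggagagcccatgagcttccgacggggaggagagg
Counted from the start at the right end, Insig1 and Sc5d both hold an E-box, beginning at -101 and -98. The CCAAT box begins at -216 in Insig1, -24 in Sc5d, -62 in Lss and -136 in Pmvk, and Mvd holds a pair at -60 and -27. The window of Pmvk is the upstream of 2 in the table, and the other held none of the strings that capitals mark.

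The sterol element core is shown in capitals, with its neighbouring bases, for the 2 genes that held it.
Msmo1, chr8:64733737-64733766, minus strand: tctcactattcTCACTCCAtccgcgcagcc
Srebf2, chr15:82147096-82147125, plus strand: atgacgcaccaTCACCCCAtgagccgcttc
Msmo1, in which it begins at -177, rose with inhibitors alone and with ISO, and Srebf2, in which it begins at -162, passed the test in neither. In the presence of inhibitors both genes fell with ISO and with SR-3420, and both had negative interactions.

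Other genes tied to this pathway were taken from further lists. Of 9 lipogenic targets of SREBP-1, inhibitors alone raised 5 and lowered 0, and in the presence of inhibitors SR-3420 lowered 7 and raised 0. Over all genes 0.485% rose and 0.428% fell in the first comparison, and 1.36% fell and 2.99% rose in the second. At an unadjusted p under 0.05 edgeR placed 9 higher and 0 lower in the first, and 7 lower and 0 higher in the second. DESeq2 called 7 higher and 0 lower in the first, against 0.814% and 0.675% of all genes. In the second it called 7 lower and 0 higher, against 1.56% and 3.74%. The rises with inhibitors alone were those of the fatty acid elongase gene Elovl6 (0.70 ± 0.11), the acetyl-CoA synthetase gene Acss2 (0.62 ± 0.09), Acly (0.36 ± 0.08), Acaca (0.30 ± 0.06) and the desaturase gene Fads1 (0.26 ± 0.06). With ISO 5 of the 9 rose and 1 fell, against 26.8% and 25% of all genes, and with ISO and inhibitors 5 rose and 4 fell, against 29.4% and 28.3%. The interaction of ISO and inhibitors was -1.35 ± 0.09 for Fads1, -1.23 ± 0.13 for Acss2 and -0.71 ± 0.17 for Scd1, a further desaturase gene. By DESeq2 this interaction was positive in 1 and negative in 5 of the 9, against 14.8% and 16.5% of all genes.

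No gene passed with inhibitors alone, or with SR-3420 in the presence of inhibitors, among 11 genes of the isoprenoid branches, 11 of sterol storage and trafficking, 8 of sterol-regulated degradation at the endoplasmic reticulum and 6 of the oxysterol receptor LXR and sterol efflux, by edgeR or DESeq2. At an unadjusted p under 0.05 edgeR placed 3, 1, 1 and 1 of them past it with inhibitors alone, and 0, 1, 1 and 1 with SR-3420. The counts that follow for ISO and inhibitors stand against 29.4% of all genes that rose and 28.3% that fell. Of the 11 isoprenoid genes 5 rose and 3 fell, with Pdss1 of ubiquinone synthesis at 1.54 ± 0.15, and Nus1 and Dhdds, which together make dolichol, at 1.16 ± 0.07 and 1.08 ± 0.08. Of the 11 of sterol storage and trafficking 3 rose and 4 fell. Soat2, a sterol esterification enzyme, had 34, 18 and 43 counts in Lipase Inh. + Vehicle and 1, 4 and 12 in Lipase Inh. + ISO, and its change of -2.42 ± 0.38 rests on these few counts. The sterol carrier gene Gramd1b fell by 1.33 on the log2 scale (SE 0.15). Of the 6 of the LXR list 1 rose and 3 fell, with Mylip, a ubiquitin ligase for lipoprotein receptors, at -1.71 ± 0.11 and the sterol exporter gene Abcg1 at -1.12 ± 0.10. Lpcat3, an acyltransferase of phospholipids, rose with ISO (0.94 ± 0.10) and had an interaction of -1.12 ± 0.14. Of the 8 of the degradation list 5 rose and 3 fell.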

How the data were processed

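RNA-seq was performed on total RNA of 18 samples, 3 in each of 6 groups taken from the sample labels. Per the study's methods and the submitters' processing notes, the authors aligned reads to mm9 with STAR 2.4.2a, made HOMER tag directories that keep 1 read per position and length, which can limit high counts, and used iRNA-seq to count them over RefSeq genes. The deposited values are raw, unfiltered whole-number counts, with 0 columns of other samples. The use of strand is not given in the sources used here. Starts, counted from 0 in the table, are printed counting from 1.

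The main test was edgeR 4.0.16 in R 4.3.3. A filter (filterByExpr, minimum count 10, minimum total count 15) and TMM scaling were applied, 1 quasi-likelihood model with a mean per group was fitted over all 18 samples, and contrasts were adjusted by Benjamini-Hochberg over 12156 genes. A gene rose or fell at an adjusted p of at most 0.05. Standard errors come from the fold change and its F statistic. CPM use TMM-scaled libraries. Total counts ranged from 4263755 to 21205032, and intervals of single shares would cover counting error only. The script was tested on simulated counts. Alternatives were DESeq2 1.42.0, other scalings, no filter, only the groups compared, thinned counts, a replicate block and leaving out each library. Every gene of the list is named, and values in every sample are given for Insig1, Insig2, Srebf1, Srebf2, Scap and the 8 genes with the largest range of group means. Genes of the other lists are named if called at 2-fold with ISO, with or without inhibitors or in their interaction, at most 3 per list, and, beyond that rule, where a comparison with inhibitors alone is described. Members, lists and tests were chosen with earlier results of these data known. Promoters come from RefSeq on GRCm38.p6, not on the build of the counts, and no position was converted.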

Additional observations from a re-analysis of the deposited data

Results flagged for a closer look

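The effect of ISO differed between cells without and with lipase inhibitors in 22 genes by the interaction test of edgeR (adjusted p at most 0.05), given here as the log2 effect with inhibitors minus that without. No group held enough samples for a test of single outlying samples. At least 2-fold were the values of Insig1 (-3.90), Sc5d (-1.70), Lss (-1.45), Pmvk (1.40), Mvd (-1.14) and Mvk (1.05). Smaller negative values were those of Nsdhl (-0.93), Fdft1 (-0.88), Msmo1 (-0.82), Cyp51 (-0.79), Sqle (-0.78), Lbr (-0.73), Dhcr7 (-0.62), Mbtps2 (-0.53), Stard4 (-0.51), Srebf2 (-0.44) and Srebf1 (-0.43). Smaller positive values were those of Hsd17b7 (0.50), Insig2 (0.46), Idi1 (0.41), Acat2 (0.41) and Mbtps1 (0.29).

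The effect of SR-3420 differed in the same way in 16 genes. Insig1 (-1.26) and Cyp51 (-1.02) were past 2-fold. Sc5d (-0.98), Sqle (-0.92), Lss (-0.81), Hsd17b7 (-0.76), Pmvk (-0.68), Stard4 (-0.64), Lbr (-0.58), Msmo1 (-0.56), Nsdhl (-0.46), Insig2 (-0.45) and Srebf2 (-0.45) were negative as well. Mbtps1 (0.43), Ebp (0.31) and Srebf1 (0.30) were positive.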

How the results depend on the processing

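Scaling by total counts alone reversed the effect of ISO on Acat2 (-0.29) and Mbtps2 (-0.084). It moved ISO against SR-3420 to 8 genes higher and 4 lower (6.38% and 25% of all genes under that scaling), and Lipase Inh. + SR-3420 against Vehicle to 0 higher and 4 lower (1.8% and 8.54%). That last comparison, with 3 and 1 genes, changed under several settings. With only the groups compared and with thinned counts, 1 was higher and 0 lower. DESeq2 gave 2 lower, against 3.13% of all genes. Without the filter 3 were lower, and as libraries were left out 1 to 3 were higher and 1 to 2 lower. Apart from DESeq2, shares of all genes under these settings are not given. The 3 positive interactions of SR-3420 and inhibitors became 1 without the filter and 1 to 4 with a library left out. The cause of these changes was not tested. Left out in turn, libraries gave 9 to 12 genes higher with inhibitors alone, 10 to 15 lower with SR-3420 and inhibitors, and 15 to 16 negative interactions of ISO and inhibitors.

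Same-numbered replicates did not deviate together throughout (mean correlation -0.01, 0.15 and 0.19 for numbers 1, 2 and 3). The replicate block raised the share of all genes higher and lower with inhibitors alone to 1.21% and 1%, and with SR-3420 and inhibitors to 4.75% and 2.26%. It raised the share lower in Lipase Inh. + SR-3420 than in Vehicle to 5.91%. With this block 12 genes rose with inhibitors alone and 16 fell with SR-3420 and inhibitors. In Lipase Inh. + SR-3420, 3 were lower than in Vehicle. Low counts limit Tm7sf2 and Soat2.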
